A study of Hymenochirus boettgeri with 8 samples.

Results

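Whole swimming tadpoles of the dwarf clawed frog Hymenochirus boettgeri were compared with whole embryos at stage 26 of the Nieuwkoop and Faber (NF) scale, gene by gene, in poly-A RNA-seq. Both groups were wild-type, with 2 libraries each. Unfertilized eggs and 8-cell embryos, also wild-type and with 2 libraries each, showed which genes had poly-A RNA before the embryo had made much RNA of its own. The labels give no age for the tadpoles and name no clutch or parent for any library, so the spread between 2 libraries of a stage may be technical. Values were TPM, a share of all transcripts in a library scaled for transcript length, and were summed over the transcripts of each assembly gene. The genes described had 5 TPM or more in at least 2 of the 4 tadpole and stage 26 libraries, and are called expressed genes below. They numbered 32726 of 145306 assembly genes (22.5%) and held between 77.5% and 88.4% of the TPM in the 4 libraries. The second-highest of the 4 values lay from 5 to under 6 TPM in 5452 expressed genes, and from 4 to under 5 TPM in 7567 genes left out. The identifiers were not paired with gene names in the files, so genes are described by class and by identifier only for the 2 largest differences in each direction, and no pathway, tissue marker or sequence is given.

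Frog eggs carry a store of maternal mRNA that directs cleavage, and the embryo's own genome is switched on later, around the mid-blastula transition. At stage 26 the tail bud is forming and the organs are being laid down. A swimming tadpole has contracting muscle, a working nervous system and a circulation, and larvae of Hymenochirus, unlike the filter-feeding larvae of Xenopus, catch live prey by suction. In whole animals, fewer cells of a type and less RNA per cell cannot be told apart.

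Libraries of 1 stage differed widely, and tadpole replicate 2 and stage 26 replicate 1 had the most genes at 5 TPM or more. Genes at 5 TPM or more numbered 26899 and 35360 in tadpole replicates 1 and 2, and 36262 and 22160 in stage 26 replicates 1 and 2. Of the expressed genes, 5120 (15.6%) reached 5 TPM only in tadpole replicate 2 and stage 26 replicate 1, against 1107 only in tadpole replicate 1 and stage 26 replicate 2. The group of 5120 had medians of 2.79 and 7.43 TPM in tadpole replicates 1 and 2, and of 8.42 and 2.36 TPM in stage 26 replicates 1 and 2. By the way they are defined, these 5120 lie at or above 5 TPM in 1 of these pairs and below it in the other. The difference between their medians is thus fixed by the choice. They also overlap between the stages by definition, and can enter none of the classes of higher or lower genes described below. Across the expressed genes, log2(TPM + 1) correlated at r = 0.689 between the tadpole libraries. Between the stage 26 libraries r was 0.637. Over the same genes r was 0.947 between the 8-cell libraries and 0.775 between the egg libraries. Tadpole replicate 1 correlated at r = 0.357 with stage 26 replicate 1 and at r = 0.609 with stage 26 replicate 2. For tadpole replicate 2 these values were 0.513 and 0.441. With the egg and 8-cell libraries, stage 26 replicate 1 correlated at r = 0.320 to 0.429. Stage 26 replicate 2 did so at r = 0.509 to 0.604. Tadpole replicate 1 correlated with the early libraries at r = 0.327 to 0.371, and tadpole replicate 2 at r = 0.211 to 0.267. The cause of these differences between replicates was not tested, nor was their part in the egg and 8-cell shares below. These correlations are across genes, which are not independent replicates.

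Most of the expressed genes that lay at least 4-fold apart in every pairing of a tadpole with a stage 26 library were higher in tadpoles, 81.7% of them. A gene was placed in a fold class only when each of the 4 pairs of a tadpole and a stage 26 library reached that ratio in the same direction, with 1 TPM added to each value. At this standard 1492 expressed genes (4.56%) were at least 4-fold higher in tadpoles and 335 (1.02%) were at least 4-fold lower. Over all 100045 genes at 1 TPM or more in at least 2 of the 4 libraries, 2.17% were at least 4-fold higher and 0.533% at least 4-fold lower. At least 2-fold higher were 3238 expressed genes (9.89%, against 8.84% of the 100045) and at least 2-fold lower were 1259 (3.85%, against 3.48%). At least 8-fold higher were 561 (1.71%, against 0.561%) and at least 8-fold lower were 73 (0.223%, against 0.073%). At least 16-fold higher were 183 (0.559%, against 0.183%) and at least 16-fold lower were 15 (0.0458%, against 0.015%). With 1 TPM added, a gene of low level cannot reach a high ratio. The 8-fold and 16-fold classes thus hold expressed genes alone by construction. The lowest of the 100045 genes are kept out of the 4-fold classes in the same way. The larger 4-fold shares among expressed genes are thus partly fixed by the added 1 TPM and the minimum of 5 TPM. The tadpole and stage 26 values overlapped in 20346 expressed genes (62.2%). The stages did not overlap in 7065 genes higher in tadpoles (21.6%, against 22.8% of the 100045) and in 5315 lower in tadpoles (16.2%, against 15.7%). These shares lie near those of all genes. All 4 pairs stayed within 2-fold in 5611 genes (17.1%).

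**Figure D1:**
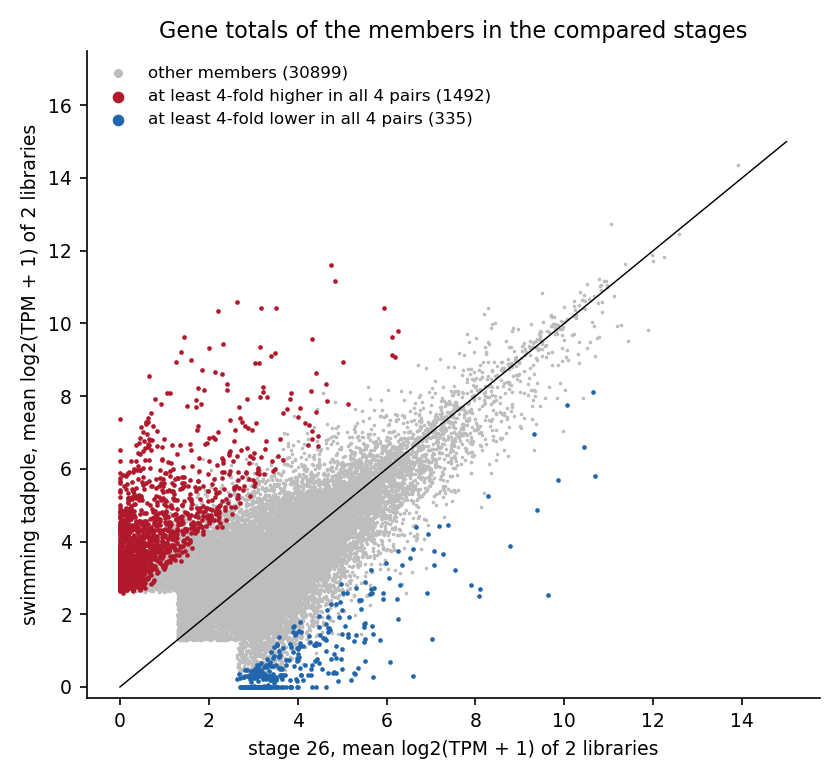
Mean log2(TPM + 1) of the 32726 expressed genes in swimming tadpoles (vertical axis, 2 libraries) and stage 26 embryos (horizontal axis, 2 libraries), with the line of equal values. Red points are the 1492 genes at least 4-fold higher in all 4 library pairs and blue points the 335 at least 4-fold lower, with most red points close to the vertical axis and most blue points close to the horizontal axis.

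The balance of higher and lower genes differed between the single pairs. Tadpole replicate 2 was at least 4-fold above stage 26 replicate 2 for 18.1% of expressed genes and at least 4-fold below it for 6.3%. Tadpole replicate 1 was at least 4-fold above stage 26 replicate 1 for 10.8% and below it for 11.2%. Between the tadpole libraries 8.39% of expressed genes lay at least 4-fold apart, and between the stage 26 libraries 16.3%. A 4-fold ratio in a single pair was therefore within what 2 libraries of 1 stage could show.

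**Figure D2:**
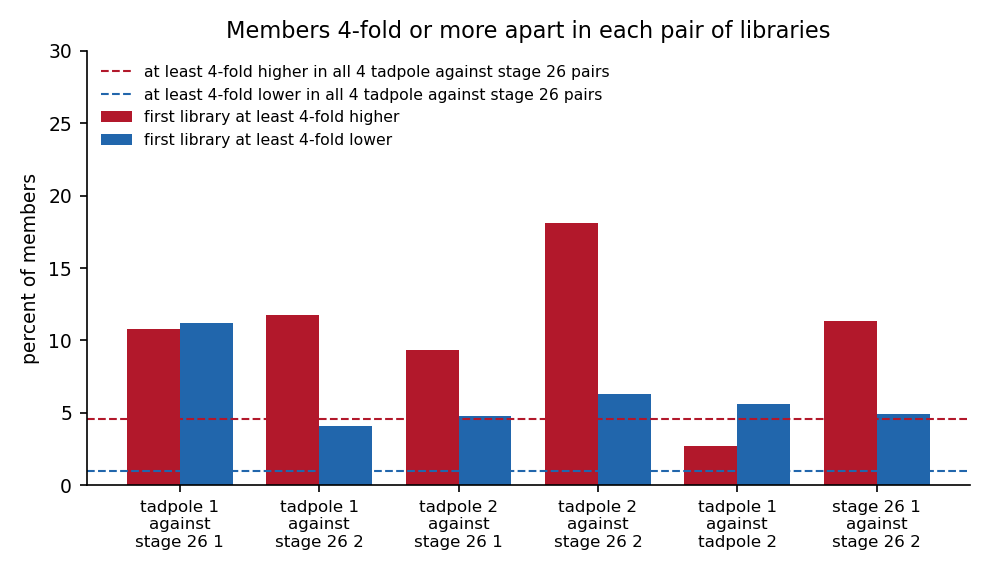
Percent of the 32726 expressed genes at least 4-fold higher (red) or lower (blue) in the first than in the second library of each pair, for the 4 tadpole against stage 26 pairs and for the replicates of each stage. Dashed lines mark the 4.56% higher and 1.02% lower in all 4 pairs; the stage 26 replicates lay at least 4-fold apart in 16.3% of genes, and a tadpole and a stage 26 library in 14.1% to 24.4%.

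No gene passed the test that compared the stages across all genes. The limma moderated test on log2(TPM + 1) in the 4 libraries, two-sided and Benjamini-Hochberg adjusted over 100045 genes, called 0% of genes higher and 0% lower, and the smallest adjusted p was 0.101. At an unadjusted p under 0.05 in limma, 3344 expressed genes were higher in tadpoles (10.2%, against 9.73% of all genes tested) and 1256 were lower (3.84%, against 3.9%). The fit had 2 residual degrees of freedom and treated the 4 libraries as independent. Same-numbered libraries of the 2 stages deviated from their stage means in opposite directions (r = -0.50 over the expressed genes), which this fit leaves out. When all 8 libraries shared 1 estimate of the spread, limma called 6914 genes higher and 1742 lower (2022 and 417 of them expressed genes), and when only genes at 10 TPM or more in 2 libraries were tested it called 279 higher and 28 lower. With the expressed genes alone in the test, limma called 0 genes in both directions, and the smallest adjusted p was 0.0514. The fold classes below are therefore descriptions of these 4 libraries.

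Most genes of the 4-fold classes were expressed genes through 1 stage alone. Both tadpole libraries and neither stage 26 library reached 5 TPM for 1368 of the 1492 genes at least 4-fold higher (91.7%). Both stage 26 libraries and neither tadpole library did so for 290 of the 335 at least 4-fold lower (86.6%). Such genes were admitted by the stage in which they were high, so the size of the classes is no support for a difference. The 12056 genes at 5 TPM or more in all 4 libraries were not admitted by 1 stage alone. That minimum is a choice too: it leaves out genes low in either stage, and so the large folds from a low level. Of the 12056, 287 (2.38%, against 8.84% of the 100045) were at least 2-fold higher in tadpoles and 239 (1.98%, against 3.48%) at least 2-fold lower. At least 4-fold, 60 of the 12056 were higher (0.498%, against 2.17%) and 25 lower (0.207%, against 0.533%). Without overlap at any fold the balance was the other way. Of the 12056, 1780 were higher (14.8%, against 22.8% of the 100045) and 2257 lower (18.7%, against 15.7%). The counts also rested on all 4 libraries. They can only grow when a library is left out, since fewer pairs must then hold, and at least 4-fold higher were 3076 genes without stage 26 replicate 1 and 2304 without its replicate 2. At least 4-fold lower were 763 without tadpole replicate 1, 880 without tadpole replicate 2, 626 without stage 26 replicate 1 and 768 without stage 26 replicate 2.

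Among the 14233 expressed genes that averaged 10 TPM or more in the compared libraries, c119981_g1 stood furthest above stage 26 in its least favourable pair. It had 993 and 1672 TPM in the tadpole libraries, against 3.79 and 3.38 TPM at stage 26, and all 4 early libraries listed it at 0. Its level was thus high in tadpoles alone, with each of its 2 transcripts between 474 and 840 TPM in the tadpole libraries and under 3 TPM at stage 26. The log2 difference in TPM + 1 was 8.14 (SE 0.67, adjusted p = 0.101, limma), and 7.70 in the least favourable pair. The next gene, c152703_g1, had 1 transcript, with 485 and 732 TPM in tadpoles, against 1.60 TPM in both stage 26 libraries. It stayed at or under 0.114 TPM in 8-cell embryos and eggs. Its log2 difference was 7.84 (SE 0.63, adjusted p = 0.101, limma).

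The furthest below stage 26 was c109938_g1, with 4.18 and 5.52 TPM in tadpoles, against 951 and 655 TPM at stage 26. It had 9.08 and 10.4 TPM in 8-cell embryos and 13.5 and 4.49 TPM in eggs, so a low level preceded and followed the high level of stage 26. Its log2 difference was -7.09 (SE 0.65, adjusted p = 0.101, limma), and its 2 transcripts were both above 220 TPM at stage 26 and under 4 TPM in tadpoles. The next, c157817_g1, had 0.223 and 0.26 TPM in tadpoles, against 65.1 and 141 TPM at stage 26, and all 4 early libraries listed it at 0. Its log2 difference was -6.29 (SE 0.68, adjusted p = 0.101, limma). By the way they were picked, the tadpole and stage 26 libraries of all 4 genes lay far apart. Only c109938_g1 was above 1 TPM in every early library. The most abundant gene of both tadpole libraries behaved otherwise: it had 13679 and 32633 TPM in tadpoles, against 29675 and 7977 TPM at stage 26, so that its replicates differed more than its stages, and 0.567 to 1.81 TPM in the 4 early libraries.

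**Figure D3:**
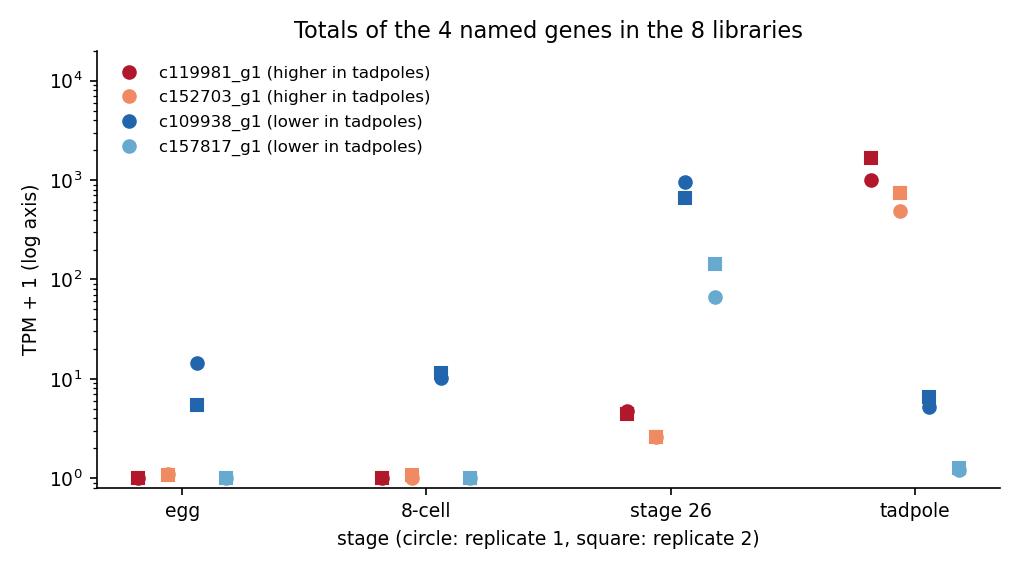
Gene totals (TPM + 1, log axis) of the 2 genes furthest above and the 2 furthest below stage 26 in tadpoles, in 2 libraries of each of the 4 stages (circle, replicate 1; square, replicate 2). c119981_g1 and c152703_g1 are high in tadpoles alone, c157817_g1 at stage 26 alone, and c109938_g1 is at 4.49 to 13.5 TPM in the early libraries.

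In TPM, the genes at least 4-fold higher held a small share of the egg and 8-cell libraries. Their share of the TPM was 0.168% ± 0.040 in eggs and 0.219% ± 0.029 in 8-cell embryos. It then was 0.235% ± 0.017 at stage 26 and 7.09% ± 1.44 in tadpoles (mean ± SD, n = 2 each). The tadpole libraries, at 8.11% and 6.08%, and the stage 26 libraries set the class, so the gap between them is fixed by the choice, whereas the egg and 8-cell libraries were not used for it. The class was made of many moderate genes and a few abundant ones: its median gene had 14.1 TPM in each tadpole library, and 113 genes with a tadpole mean of 100 TPM or more held 62.8% and 56.8% of its TPM there. The genes at least 4-fold lower held 1.45% ± 0.320 in eggs and 0.996% ± 0.017 in 8-cell embryos. They then held 1.82% ± 0.091 at stage 26 and 0.143% ± 0.020 in tadpoles. Their 10 most abundant genes at stage 26 held 54.4% and 54.3% of the class in the stage 26 libraries. The smallest p that an exact permutation test (two-sided) allows here is 0.333, so no test of these shares was made and only their spread is given. The stage 26 share of the lower class was 5.92% when stage 26 replicate 1 was not used to choose it, 3.19% without stage 26 replicate 2, 3.09% without tadpole replicate 2 and 2.84% without tadpole replicate 1.

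**Figure D4:**
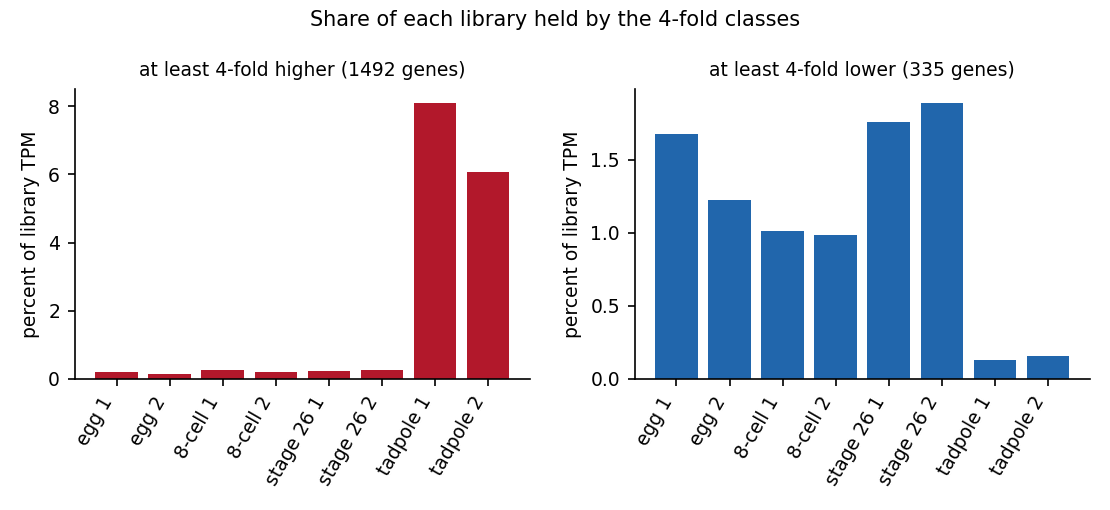
Percent of each library's TPM held by the 1492 genes at least 4-fold higher (left) and the 335 at least 4-fold lower (right) in tadpoles than at stage 26, in 8 libraries from egg to tadpole. The higher class holds 0.140% to 0.247% before the tadpole stage and 6.08% and 8.11% in tadpoles; the lower class holds 0.984% or more in each egg, 8-cell and stage 26 library and 0.128% and 0.157% in tadpoles.

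The genes at least 4-fold higher in tadpoles were mostly under 1 TPM in the poly-A RNA of eggs and 8-cell embryos. RNA that poly-A capture misses was not measured, so a value of 0 does not show that a gene had no RNA. A gene was counted as present early when it had 1 TPM or more in at least 2 of the 4 egg and 8-cell libraries. This held for 201 of the 1492 (13.5%, 95% Wilson interval 11.8% to 15.3%, counting error only), against 19110 of all 32726 expressed genes (58.4%). Listed at 0 in all 4 early libraries were 856 of them (57.4%), against 6210 of all expressed genes (19.0%). The other 435 (29.2%) were above 0 in at least 1 early library but did not reach 1 TPM in 2. The share was 20.5% of the genes at least 2-fold higher and 10.3% of those at least 8-fold higher, and it was 77.7% among the 5611 genes within 2-fold in all pairs. In the single libraries, 13.9% and 14.5% of the 4-fold class reached 1 TPM in 8-cell embryos and 9.58% and 10.7% in eggs. Egg replicate 1 had the fewest genes above 0, 51089 against 77233 to 83561 in the other early libraries, and its part in these shares was not tested. The share present early was 20.3% when stage 26 replicate 2 was not used to choose the class.

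The share was below that of all expressed genes at each tadpole level. Among expressed genes with a tadpole mean of 5 to under 10 TPM, 6.78% of the genes at least 4-fold higher were present early, against 55.4% of all at that level. At 100 TPM or more it was 22.1% of 113 genes, against 78.1% of all 896 at that level. It was also low among genes admitted in the same way: of the 3717 genes at 5 TPM in both tadpole libraries alone, 11.5% of those at least 4-fold higher were present early, 22.8% of those 2- to 4-fold higher and 37.3% of those under 2-fold higher. Among the 12056 genes at 5 TPM in all 4 libraries, 42.9% of the 287 genes at least 2-fold higher were present early (95% Wilson interval 37.3% to 48.6%), against 78.8% of the 11530 that were neither 2-fold higher nor 2-fold lower. Within the 287 the share did not go down with the fold: it was 51.7% of the 60 genes at least 4-fold higher (31 genes, interval 39.3% to 63.8%) and 40.5% of the 227 genes 2- to 4-fold higher. The 4-fold class at 13.5% thus consists mostly of genes admitted by the tadpole libraries alone. Levels were matched in tadpoles only. By the choice of the class, the genes at least 4-fold higher were low at stage 26, with a median of 0.33 TPM in each library. The part of the stage 26 level in these shares was not tested. Genes are not independent replicates, so these shares carry no test.

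Genes at least 4-fold lower in tadpoles included genes present in eggs and 8-cell embryos and genes listed at 0 there. Present early were 115 of the 335 (34.3%, 95% Wilson interval 29.4% to 39.6%, counting error only), against 58.4% of all expressed genes. Listed at 0 in all 4 early libraries were 121 (36.1%), against 19.0% of all expressed genes. Genes are not independent replicates, so the intervals here carry no test. This too differed by the way a gene was admitted: 120 of the 121 were at 5 TPM in the stage 26 libraries alone. Of the 25 genes at least 4-fold lower that had 5 TPM in all 4 libraries, 14 (56%) were present early and 0 were listed at 0 in all early libraries. Of the 239 at least 2-fold lower there, 75.3% were present early (95% Wilson interval 69.5% to 80.4%), against 78.8% of the 11530 that were neither. Of the 1259 genes at least 2-fold lower, 50.4% were present early. Of all 5315 genes lower without overlap it was 70.4%, and of the 4056 of these lower by under 2-fold it was 76.6%. Both lay above the 58.4% of all expressed genes, so the direction of this comparison depended on the fold. For the 4-fold class the share was below that of all expressed genes at each stage 26 level, as in the higher class at each tadpole level. At a stage 26 mean of 5 to under 10 TPM it was 22.9% of 131 genes, against 58.0% of all at that level. At 100 TPM or more it was 58.3% of 24 genes, against 89.5%. In the single libraries, 36.4% and 34.9% of the 4-fold class reached 1 TPM in 8-cell embryos and 20.6% and 35.8% in eggs. In this class 38 genes were at 5 TPM or more in all 4 early libraries and held 71.4% to 98.7% of the class's TPM there. They were chosen for early RNA, so this share is a description. The highest of them had 5261 TPM in egg replicate 1, where the whole class held 16703.5 TPM. The median of the 38 was 35.0 and 38.7 TPM in eggs and 36.0 and 37.4 TPM in 8-cell embryos. It then was 25.3 and 27.5 TPM at stage 26 and 2.57 and 2.53 TPM in tadpoles. Of these, 10 were at 100 TPM or more in all 4 early libraries. The 121 genes listed at 0 in the early libraries had medians of 9.70 and 7.76 TPM at stage 26, and held 10.8% and 7.64% of the class's stage 26 TPM. The share present early was 53.0% when stage 26 replicate 1 was not used to choose the class.

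**Figure D5:**
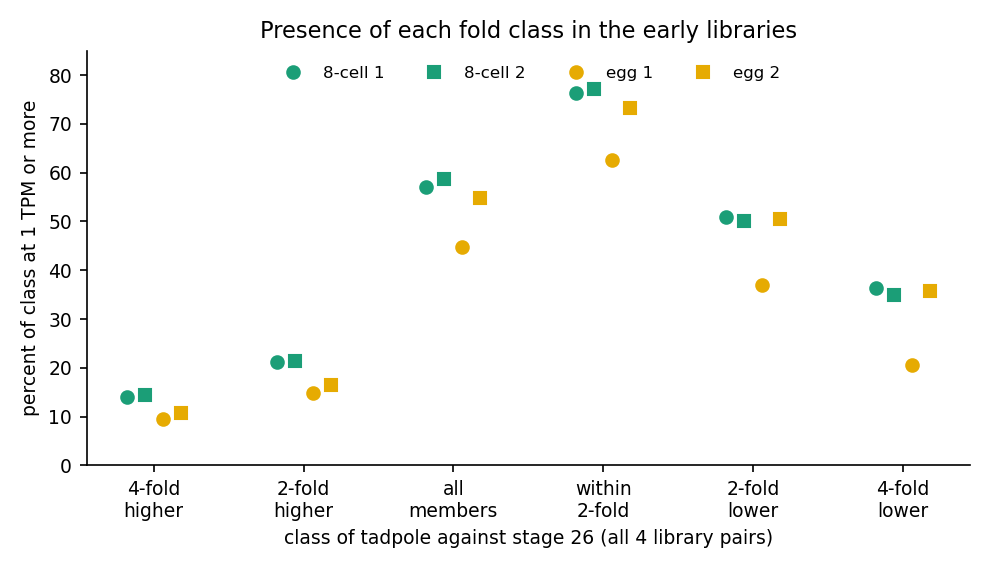
Percent of each class of tadpole against stage 26 at 1 TPM or more in each 8-cell (green) and egg (yellow) library. The 4-fold higher class lies at 9.58% to 14.5% and the 4-fold lower class at 20.6% to 36.4%, both below all expressed genes at 44.8% to 58.7%; egg replicate 1 is the lowest point in every class.

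Among the 1492, 22 genes were at 5 TPM or more in all 4 early libraries. They were chosen for early RNA and for being at least 4-fold lower at stage 26 than in tadpoles, so their levels are a description. Their medians were 18.9 and 15.8 TPM in eggs and 27.9 and 23.7 TPM in 8-cell embryos. They then were 2.57 and 3.90 TPM at stage 26 and 65.5 and 41.2 TPM in tadpoles. Of the 22, 8 were also at 5 TPM or more in both stage 26 libraries, and the highest values there were 37.4 TPM in replicate 1 and 43.8 TPM in replicate 2. These 22 genes held 51.0% to 58.1% of the early TPM of the class, against 4.10% and 3.91% of its TPM in tadpoles.

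The contrast of 8-cell embryos with eggs played no part in choosing the classes. Of all expressed genes, 1733 were at least 2-fold higher in 8-cell embryos in all 4 library pairs (5.30%, against 3.43% of the 100045) and 104 were at least 2-fold lower (0.318%, against 0.224%). Of the whole 4-fold classes, 2.28% of the higher and 3.28% of the lower class were at least 2-fold higher in 8-cell embryos, both below the 5.30% of all expressed genes; genes at or near 0 in the early libraries cannot reach such a ratio. Among the 201 genes at least 4-fold higher in tadpoles that were present early, 34 (16.9%) were at least 2-fold higher in 8-cell embryos, and among the 115 present early of the lower class 11 (9.57%) were. Over all 19110 expressed genes present early it was 9.07%. Presence early was read from the same 4 libraries, so these shares depend on that choice and are a description. Of the 201, 88 reached 1 TPM in both 8-cell but not both egg libraries, and 12 the reverse. Of the 19110 these were 4772 and 429. The count of 1733 was 3347 without 8-cell replicate 1, 3634 without 8-cell replicate 2, 4141 without egg replicate 1 and 6331 without egg replicate 2, and that of 104 was 201, 517, 1697 and 1775 in the same order.

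In most genes of the 4-fold classes with 2 or more transcripts at a mean of 1 TPM, these shared the direction of the total. The total is the sum of the transcripts and the genes were picked by it, so this agreement is partly fixed by the choice. Several transcripts were assembled for 46.4% of the genes at least 4-fold higher, 34.3% of those at least 4-fold lower and 48.1% of all expressed genes. Of 556 genes at least 4-fold higher with 2 or more transcripts at a mean of 1 TPM, every such transcript was at least 2-fold higher in all 4 pairs in 354 (63.7%). Of 90 such genes at least 4-fold lower, every transcript was at least 2-fold lower in 50 (55.6%). Of 13161 expressed genes with 2 or more such transcripts, 2057 had 1 or more at least 2-fold higher in all pairs. In 922, 1 or more transcripts were at least 2-fold lower in all pairs. Both held in 55 genes, and in 49 of these the total was neither 2-fold higher nor 2-fold lower. Smaller opposite changes are not in this count. Totals could also hide a transcript: in 132 of 11457 genes whose total was neither, 1 or more transcripts were at least 4-fold higher in all 4 pairs, and in 76 at least 4-fold lower. Assembly genes of 1 component share sequence and may be parts of 1 gene. The 1492 genes came from 1293 components, of which 152 held several, and the 335 from 305, of which 21 held several.

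The classes were found at low and at high abundance. Of the 18493 expressed genes that averaged below 10 TPM, 4.90% were at least 4-fold higher in tadpoles and 1.16% at least 4-fold lower. At 10 to under 100 TPM it was 3.97% and 0.789% of 13309 genes. Of 849 genes at 100 to under 1000 TPM, 55 (6.48%) were at least 4-fold higher and 15 (1.77%) at least 4-fold lower. Of 75 genes at 1000 TPM or more, 2 were at least 4-fold higher and 0 at least 4-fold lower.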

How the data were processed

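Per the labels' protocols, TRIzol and a column purification gave RNA of whole eggs, embryos or tadpoles, and strand-specific libraries followed poly-A capture. The deposited values are TPM per transcript, which the authors estimated by kallisto (version 0.42.4, per the submitters' processing notes). The assembly's sequences and any filter were not used here. Columns were matched to samples by title. TPM was summed over the transcripts of an assembly gene, the identifier without its isoform number. Read totals are unknown, TPM keeps no absolute depth, and intervals cover counting of genes only. The table has 220713 transcripts, and the column sums lie between 991754 and 998506. Fold classes used the least favourable of the 4 library pairs on log2(TPM + 1), which understates the change of low genes. The test was limma 3.58.1 (R 4.3.3) with stage means and a trended prior variance, on genes at 1 TPM or more in at least 2 of the 4 libraries, called at an adjusted p under 0.05. The 4 libraries alone were fitted because genes listed at 0 in eggs and 8-cell embryos would get a small spread from them. The fit was tested on simulated data with independent noise in each library, so deviations shared between libraries were not covered. Named genes had a mean of at least 10 TPM and the largest log2 ratio in their least favourable pair, 2 in each direction. Alternatives covered the pseudocount, the filter, 2 scalings, the prior variance, the libraries fitted, a replicate block, the most abundant transcript in place of the sum, the minimum for presence and each library left out. The genes and classes were chosen with earlier results of these data known. Python 3.11.15, pandas 2.3.3, numpy 2.4.6, scipy 1.17.1 and matplotlib 3.10.9 were used.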

Additional observations from a re-analysis of the deposited data

How the results depend on the processing

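No gene was called in the 4-library limma fit, with either pseudocount, with either scaling, with a constant prior variance, without a filter, with a minimum of 5 TPM (an alternative added after seeing the data), with the most abundant transcript or without any 1 of the 4 libraries. With the minimum of 5 TPM, which tests the expressed genes alone, the smallest adjusted p was 0.0514 in limma, close to the limit of 0.05. Calls appeared in 3 alternatives. With all 8 libraries in the fit there were 6914 higher and 1742 lower in tadpoles. A minimum of 10 TPM gave 279 and 28, and the replicate number as a block gave 198 and 17. Same-numbered libraries deviated from their stage means in opposite directions (r = -0.50 over 32726 genes), so the numbers are not taken to pair the samples. The crossed replicate block, added after seeing the data, called 0 genes in both directions, with a smallest adjusted p of 0.061 in limma. At an unadjusted p under 0.05 in limma it had 13787 genes higher and 7001 lower, against 9731 and 3904 in the main fit.

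The 1492 genes at least 4-fold higher and 335 at least 4-fold lower became 339 and 59 with a pseudocount of 5, 822 and 150 with a minimum of 10 TPM, and 1900 to 3076 and 626 to 880 without 1 library; the lower class was 533 with a minimum of 1 TPM. Neither scaling moved the counts by over 1.5 times: 1268 and 268 of the same genes remained with median-of-ratios scaling and 1193 and 308 with quantile normalization. The share of the higher class present early, 13.5%, was 16.8% with a pseudocount of 5, 10.9% with a minimum of 1 TPM and with the most abundant transcript, 17.8% with a minimum of 10 TPM, 11.7% with median-of-ratios scaling and 15.7% to 20.3% without 1 library. Presence at 5 TPM in 2 early libraries gave 4.83%, above 0 in 1 library 42.6%, and 1 TPM in both egg libraries 5.29%. For the lower class, 34.3%, the values were 40.7% (pseudocount 5), 25.5% (1 TPM), 47.3% (10 TPM), 38.4% to 53.0% (without 1 library), 23.3%, 63.9% and 16.7% for the same 3 definitions of presence. In every one of these settings the share was lower in the higher class. The counts between 8-cell embryos and eggs, 1733 and 104, were 3018 and 255 with a pseudocount of 0.1, 598 and 27 with one of 5, and 3347 to 6331 and 201 to 1775 without 1 library; these were added after seeing the data. The 4 named genes kept their direction in every setting run. They were chosen for the largest ratios in the least favourable pair. No pseudocount and no library left out can reverse such a ratio, so this is no support for them. Where the calls or counts moved, the cause was not tested, apart from fewer pairs having to hold without a library. With no read totals, the depth behind values near 1 TPM is unknown.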
